A study of Homo sapiens with 4 samples.

Results

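The genes described here were 10 secreted antagonists of Wnt signaling, namely SFRP1, SFRP2, SFRP4, SFRP5, FRZB, DKK1, DKK2, DKK3, DKK4 and WIF1. They were matched by symbol to the 63568 gene identifiers of an RNA-Seq experiment in HGC-27, an established gastric carcinoma cell line, and each of the 10 had exactly 1 identifier. The cells had been infected with lentivirus carrying either a scrambled control shRNA or an shRNA against USP47, a deubiquitinating enzyme, and 2 libraries of polyA RNA were available for each of these groups. Both groups therefore shared the cell line, the viral infection and, per the methods, the selection for stable integration, so the control cells were not untreated cells. The labels do not say whether both knockdown libraries carried the same USP47 shRNA. The design text speaks of biological duplicates and the methods of 3 independent replicates, but the labels do not say what separates the 2 libraries of a group, so part of their spread may be technical. The set was selected on the log2 fold changes of this same comparison, in which SFRP4 was among the largest rises, and on the overlap of DKK3 with the USP47 locus, so the changes of these 10 genes are given as a description and without a test.

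Secreted Wnt antagonists act outside the cell. The secreted frizzled-related proteins (SFRP1, SFRP2, SFRP4, SFRP5 and FRZB) carry a domain that resembles the Wnt-binding part of Frizzled receptors, and WIF1 binds Wnt proteins through a different domain. The Dickkopf proteins DKK1, DKK2 and DKK4 bind instead to LRP5 and LRP6, the co-receptors that Wnt proteins need to stabilize β-catenin, whereas DKK3 is a divergent relative without a settled role in this pathway. Several of these genes are silenced by promoter methylation in gastrointestinal tumors, and DKK1 is itself a transcriptional target of β-catenin.

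Total counts on genes ranged from 15649899 to 20140273 per library, and log2 expression correlated at 0.993 between the control libraries, at 0.987 between the USP47 shRNA libraries and at 0.972 to 0.976 between groups. Values are given as raw read counts, as CPM (counts scaled to library size with TMM factors, used to compare libraries) and as the deposited TPM (scaled to gene length as well, used to compare genes). The targeted gene was lower in the cells labelled as knockdown. USP47 counts were 1357 and 1297 with control shRNA against 749 and 309 with USP47 shRNA, which left 49.3% and 29.5% of the control mean (log2 fold change -1.34, standard error 0.21, edgeR adjusted p = 0.00362). Of 18 gastric epithelial markers, 17 were matched, and 9 of these had fewer than 10 counts in every library, with a summed level of 28.6 to 36.0 CPM over the list. Across that list KRT18, KRT19, GKN1, GKN2, TFF1 and TFF2 had at most 3 counts in any library, whereas MUC1 (244 to 470 counts), MUC6 (71 to 146), CLDN18 (43 to 66) and CDH1 (8 to 28) were detected in every library. EPCAM was the only 1 of the 7 tested markers of the list that was called, as lower. It had 12 and 11 counts in control cells and 3 and 3 after knockdown, and it passed the filter on low counts only through the control group. The 12 fibroblast markers summed to 3224 to 4015 CPM, of which COL3A1 alone made 1694 to 2416 CPM, but 7 of the 12 were called and all 7 were lower after knockdown. These were THY1, PDGFRB, COL1A2, ACTA2, COL1A1, FAP and PDGFRA, with THY1 at 34.2 and 38.7 CPM against 6.59 and 10.1 CPM and PDGFRB at 8.49 and 9.02 CPM against 1.83 and 2.44 CPM. COL3A1 and DCN were not called but lay higher in both knockdown libraries than in either control library. The 7 matched endothelial markers summed to 11.5 and 12.6 CPM in control cells and to 6.97 and 7.55 CPM after knockdown (2 of 3 tested were called, both lower), and the 10 leukocyte markers to 6.69 to 9.08 CPM (0 of 3 called). The part of these shifts in the changes of the antagonists was not tested.

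In control cells 1 antagonist accounted for most of the transcripts of the set. SFRP4 stood at 13.4 TPM in each control library (13.4 ± 0.0420 TPM; SD, n = 2), which placed it at ranks 5309 and 4697 of all gene identifiers in those libraries. The next genes were DKK1 at 1.18 ± 0.0124 TPM and FRZB at 1.16 ± 0.0267 TPM, whose ranges over the libraries overlapped. Below them followed SFRP1 at 0.748 ± 0.0661 TPM, DKK3 at 0.470 ± 0.00715 TPM and SFRP5 at 0.372 ± 0.129 TPM. DKK3 and SFRP5 did not overlap but nearly touched, at 0.465 TPM for the lower DKK3 value and 0.463 TPM for the higher SFRP5 value. For genes with few counts the SD of 2 libraries can lie below the counting error. The order below SFRP4 is therefore a description. The lowest control levels were those of SFRP2 (0.133 TPM), DKK2 (0.113 TPM), WIF1 (0.0820 TPM) and DKK4 (0.0366 TPM), and each neighboring pair among these 4 overlapped. In USP47 shRNA cells SFRP4 remained first at 45.2 ± 10.1 TPM and DKK3 came next at 0.700 ± 0.102 TPM. DKK1 (0.543 ± 0.00775 TPM), FRZB (0.517 ± 0.0133 TPM) and SFRP5 (0.511 ± 0.0826 TPM) followed, with SFRP5 overlapping both of the others, and SFRP1 stood at 0.350 ± 0.0231 TPM.

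**Figure D1:**
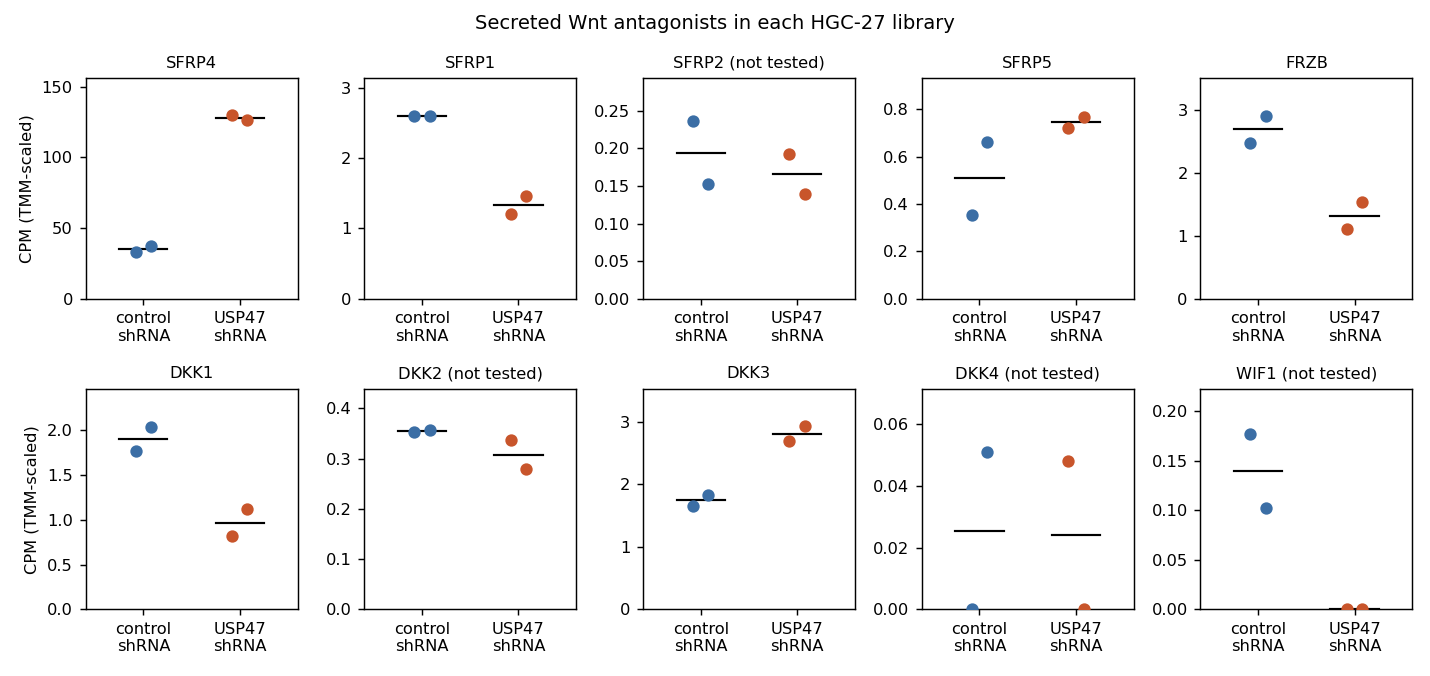
Level of each of the 10 antagonists in the 2 control shRNA libraries (blue) and the 2 USP47 shRNA libraries (orange), in CPM after TMM scaling, with the mean of each group as a line and a separate linear axis from 0 for each gene. SFRP4 rose from 35.3 to 128 CPM, SFRP1, FRZB and DKK1 were lower in both knockdown libraries, and the 4 genes marked as not tested had at most 7 counts in any library.

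After USP47 knockdown SFRP4, a secreted frizzled-related protein known for roles in bone and phosphate handling, was the member with the largest change. Its counts were 562 and 735 with control shRNA and 2702 and 1811 with USP47 shRNA, or 33.1, 37.5, 130 and 126 CPM. The groups were far apart and the replicates close together, at 35.3 ± 3.06 CPM with control shRNA and 128 ± 2.65 CPM with USP47 shRNA (SD, n = 2). The fitted log2 fold change was 1.86 with a standard error of 0.13, a 3.63-fold rise, and the USP47 shRNA libraries stood at 3.68 and 3.57 times the control mean. USP47 itself was at 36.0 CPM in USP47 shRNA replicate 1 and at 21.5 CPM in replicate 2. SFRP4 was at 130 and 126 CPM in these libraries, but at 52.4 and 38.1 in the deposited TPM. A relation between the levels of the 2 genes was not tested. Among all 21932 genes tested the rise ranked 86, and among the 2537 genes with at least the same average abundance it ranked 2. These ranks are a description, because the set was selected in part on this rise. The average abundance is taken over both groups, so the rise itself lifts it. In these cultures more SFRP4 RNA per cell and more cells that express SFRP4 cannot be told apart, and the same holds for every other change below.

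SFRP4 is annotated on the minus strand of chromosome 7 of GRCh37, from 37945534 to 38065297, with a canonical transcript of 6 exons from 37945534 to 37956419. The longer span comes from alternative upstream exons, at 9.86 to 9.96 kb and at 108.5 to 108.9 kb from the canonical start. It runs across EPDR1, a gene of the plus strand whose canonical start lies 3822 bases from that of SFRP4. The annotated exons of the genes overlap by 0 bases. EPDR1, an ependymin-related protein, rose from 19.0 ± 1.57 to 31.3 ± 0.437 CPM (SD, n = 2; log2 fold change 0.72, standard error 0.14, edgeR adjusted p = 0.00773), a call lost without control replicate 1. STARD3NL, a late endosomal membrane protein, is encoded 153 kb from the end of the longer SFRP4 span, and thus further from the canonical start. It rose from 48.7 ± 1.72 to 73.8 ± 6.03 CPM (log2 fold change 0.60, edgeR adjusted p = 0.0130), a call lost without either control library. On the other side the nearest tested gene, the pseudogene NPM1P18 at 1090 kb, had a log2 fold change of 0.24 that did not pass the threshold (edgeR adjusted p = 0.657).

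SFRP1 and FRZB moved opposite to SFRP4. The fibroblast markers also went both ways, with 7 of 12 called as lower after knockdown, while COL3A1 and DCN, not called, lay higher in both knockdown libraries. A link between these markers and the antagonists was not tested. SFRP1, which is often silenced in carcinomas, had 44 and 51 counts with control shRNA and 25 and 21 after knockdown. Its level was 2.60 ± 0.00384 CPM with control shRNA and 1.33 ± 0.185 CPM with USP47 shRNA (log2 fold change -0.98, standard error 0.26). At these counts the counting error is larger than the SD of the control libraries. FRZB, also known as SFRP3 and first described in cartilage, had 42 and 57 counts against 23 and 22. This came to 2.69 ± 0.303 and 1.32 ± 0.302 CPM (log2 fold change -1.06, standard error 0.28). For both genes the higher knockdown library lay below the lower control library, with 46.3% and 56.3% of the control mean left for SFRP1 and 41.1% and 57.0% for FRZB. SFRP5, which is best known from adipose tissue and liver, was close to the limit of detection, with 6 and 13 counts in control cells and 15 and 11 counts after knockdown. Its CPM values of 0.354, 0.663, 0.721 and 0.766 did not overlap between groups, but the log2 fold change of 0.51 was little above its standard error of 0.43 and ranged from 0.16 without control replicate 1 to 1.05 without control replicate 2.

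Of the Dickkopf genes, DKK1 and DKK3 were counted often enough to be fitted, and they moved in opposite directions. DKK1, the inhibitor of LRP5 and LRP6 that is itself induced by β-catenin, had 30 and 40 counts in control cells and 17 and 16 after knockdown. These came to 1.77 and 2.04 CPM with control shRNA and to 0.817 and 1.11 CPM with USP47 shRNA (log2 fold change -1.01, standard error 0.30), and 42.9% and 58.6% of the control mean was left. DKK3 had 28 and 36 counts against 56 and 42, or 1.74 ± 0.130 and 2.81 ± 0.165 CPM, with a log2 fold change of 0.68 and a standard error of 0.24. Both knockdown libraries lay above both control libraries for DKK3, at 1.54 and 1.68 times the control mean, but the gene was not among those called.

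SFRP2, DKK2, DKK4 and WIF1 had too few counts for the fit. SFRP2 had 4, 3, 4 and 2 counts in control replicates 1 and 2 and USP47 shRNA replicates 1 and 2, a ratio of knockdown to control of 0.892 with an exact 95% counting interval of 0.248 to 3.10. DKK2 had 6, 7, 7 and 4 counts in the same order, a ratio of 0.881 (0.357 to 2.13). DKK4 had 1 count in each group. WIF1 had 3 and 2 counts with control shRNA and 0 and 0 with USP47 shRNA, and no fold is given because 3 counts, the limit that a count of 0 allows, correspond to 0.144 to 0.209 CPM and the control libraries stood at 0.102 and 0.177 CPM. A change of these 4 genes was not detectable at this depth, and the intervals cover counting error only.

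Across the set, 6 of the 10 genes passed the filter on low counts, and 4 of these lay past the threshold used for all genes (adjusted p under 0.05), SFRP4 as higher and SFRP1, FRZB and DKK1 as lower. This count is a description and no test of the set. Over all genes tested 16.1% were called, 6.52% as higher and 9.56% as lower. In all 6 fitted genes the groups did not overlap, as in 61% of all genes tested (29.3% higher and 31.7% lower). The median log2 fold change of the 6 was -0.235 against -0.0083 for all genes tested. Since the set was picked with this contrast known, nothing is read from these shares. The count fell from 4 to 1 in the DESeq2 Wald test and in the fits without control replicate 1, without control replicate 2 and without USP47 shRNA replicate 1, where SFRP1, FRZB and DKK1 were no longer past the threshold (DESeq2 gave no adjusted p for DKK1). DKK1 was also not past it with DESeq2 size factors, with library size alone and with no filter.

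**Figure D2:**
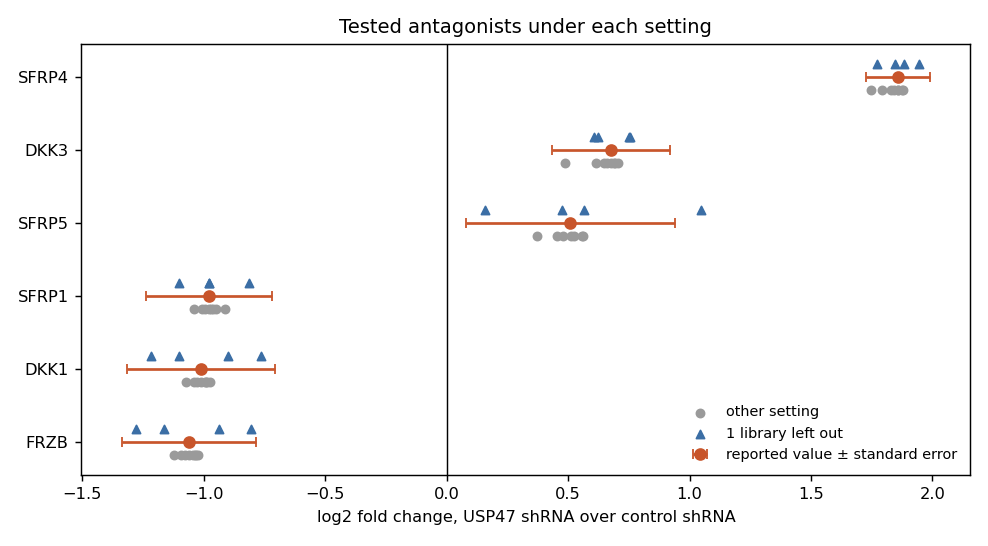
Log2 fold change of USP47 shRNA over control shRNA for the 6 fitted antagonists, with the reported value and its standard error in orange, the fits without 1 library as blue triangles and the other alternatives as grey points. SFRP4 stayed between 1.75 and 1.95, the 3 lower genes stayed between -1.28 and -0.77, and SFRP5 spread from 0.16 to 1.05.

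Because SFRP4 held most of the set's transcripts, the sum over the 10 genes followed it. The summed level was 17.7 TPM in each control library and 55.5 and 40.7 TPM in the USP47 shRNA libraries. SFRP4 made up 75.9% and 75.5% of this sum with control shRNA and 94.4% and 93.5% with USP47 shRNA. The other 9 genes together went the opposite way, from 4.26 and 4.32 TPM to 3.08 and 2.63 TPM. Within them the frizzled-related genes other than SFRP4 summed to 2.38 and 2.44 TPM against 1.58 and 1.39 TPM, and the 4 Dickkopf genes to 1.80 ± 0.0475 TPM against 1.37 ± 0.180 TPM (SD, n = 2). The USP47 shRNA libraries differed more in TPM than in CPM (52.4 and 38.1 TPM for SFRP4, against 130 and 126 CPM), and in TPM the 4 most abundant identifiers took 48.9% of the total in replicate 1 and 55.1% in replicate 2. In CPM the other 9 genes summed to 9.61 and 10.7 in control cells and to 7.12 and 8.22 in USP47 shRNA cells.

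**Figure D3:**
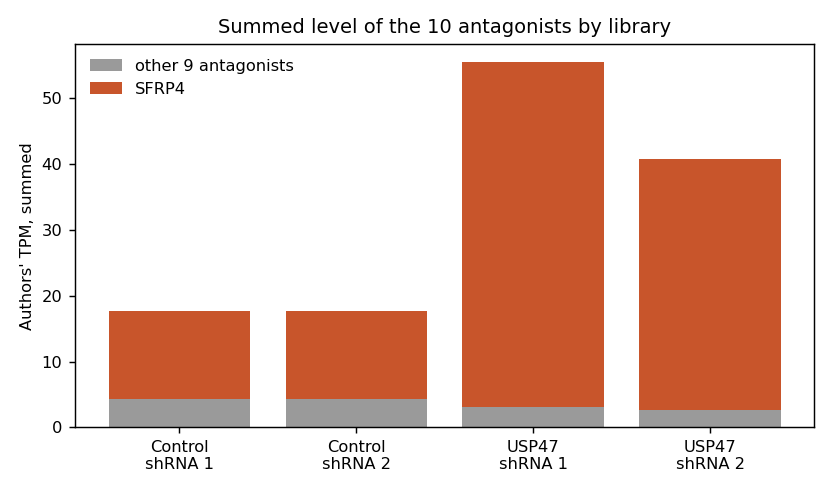
Summed deposited TPM of the 10 antagonists in each of the 4 libraries, stacked as SFRP4 (orange) and the other 9 genes (grey), on a linear axis from 0. The total was 17.7 TPM in both control libraries and 55.5 and 40.7 TPM in the USP47 shRNA libraries, while the grey part was smaller in both knockdown libraries.

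DKK3 needs to be read beside USP47, the gene that was knocked down. On chromosome 11 of GRCh37 USP47 occupies 11862970 to 11983434 on the plus strand and DKK3 occupies 11977754 to 12031316 on the minus strand, so that the genes converge. Over all annotated transcripts their exons share 5681 bases, at the 3′ end of each, whereas the canonical transcripts share 0 bases and end 1148 bases apart. The gene length of DKK3 implied by the deposited counts and FPKM was 5059 bases, against 11958 exon bases in the annotation used here. The implied length is shorter than the 5681 shared bases. If it is the full exon length of the DKK3 model that was counted, that model cannot hold the whole stretch. How much of the stretch it held is not known. The labels name a stranded library kit, but whether the counting used the strand is not stated, and without it reads of DKK3 and USP47 in a shared stretch cannot be told apart. DKK3 was higher in the libraries in which USP47 was lower, and the part of the shared stretch in the DKK3 counts was not tested.

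**Figure D4:**
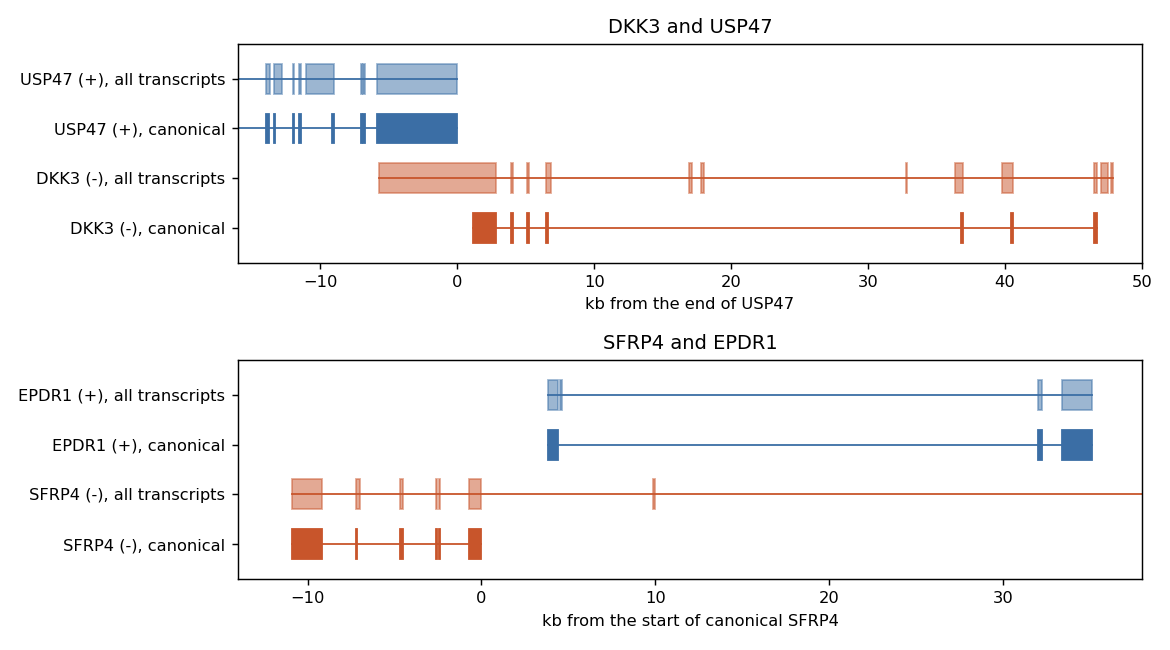
Exons (boxes) of DKK3 and USP47 (upper panel, in kb from the end of USP47) and of SFRP4 and EPDR1 (lower panel, in kb from the start of canonical SFRP4), drawn to scale for all annotated transcripts together (pale) and for the canonical transcript (dark), with the strand in parentheses; spans that run beyond a panel are cut at its edge. All-transcript exons of DKK3 and USP47 share 5681 bases, their canonical transcripts share none, and SFRP4 and EPDR1 share no exon bases.

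The sequences just upstream of the genes that moved furthest in each direction are shown because SFRP4 rose while FRZB and DKK1 were lower in the same cells. Of the 10 genes, 6 were found in the RefSeq promoter table (GRCh38.p14), and SFRP1, DKK2, DKK3 and DKK4 were not. Each line gives the 250 bases before the transcription start, 5′ to 3′ on the gene's own strand, at chr7:37916818-37917067 (minus) for SFRP4, chr2:182866638-182866887 (minus) for FRZB and chr10:52314031-52314280 (plus) for DKK1. Capitals mark a TATAAA box and a CTTTGAA word, the only hits of the motifs searched in these 3 stretches.
SFRP4: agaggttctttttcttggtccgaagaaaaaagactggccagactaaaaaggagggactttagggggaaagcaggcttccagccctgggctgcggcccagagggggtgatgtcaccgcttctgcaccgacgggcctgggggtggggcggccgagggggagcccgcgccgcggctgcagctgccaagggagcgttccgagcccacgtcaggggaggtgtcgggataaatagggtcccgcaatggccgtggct
FRZB: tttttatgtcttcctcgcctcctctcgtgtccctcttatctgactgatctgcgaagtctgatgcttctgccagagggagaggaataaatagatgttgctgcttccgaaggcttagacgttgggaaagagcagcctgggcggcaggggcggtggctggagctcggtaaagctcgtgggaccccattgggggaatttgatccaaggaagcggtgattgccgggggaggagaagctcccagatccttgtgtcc
DKK1: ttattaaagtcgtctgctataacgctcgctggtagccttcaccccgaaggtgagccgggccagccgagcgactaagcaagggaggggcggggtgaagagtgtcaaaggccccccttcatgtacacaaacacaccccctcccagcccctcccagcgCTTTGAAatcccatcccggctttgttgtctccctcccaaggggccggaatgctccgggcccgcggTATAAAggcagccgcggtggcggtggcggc
The GC content was 64.4% for SFRP4, 55.6% for FRZB and 62.8% for DKK1.

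The motif search covered both strands of the window from 250 bases before to 50 bases after the start. It used CAGGTG (the E-box bound by Snail, held by 20.6% of the 35116 promoters in the table), TGANTCA (AP-1, 7.71%), CTTTGAT (TCF/LEF, 2.62%) and GACCACCCA (GLI, 0.236%). TATAAA (11.5%) and CTTTGAA (a variant of the TCF/LEF word, 4.43%) were added after the sequences had been seen. DKK1 held TATAAA at position -30 and CTTTGAA at position -95 relative to the start. SFRP5 held CAGGTG at position 31, and no motif was found in the windows of SFRP4, FRZB, SFRP2 and WIF1. A match is a word in the sequence, and its absence says only that these letters are not in the window.

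Neighboring genes were examined to describe the surroundings of each fitted antagonist. Of 14 tested neighbors, 3 of them 1090 to 1980 kb away, 6 were called (42.9%, against 16.1% of all genes tested), 4 in the direction of the antagonist and 2 in the other. The latter were USP47, the knocked-down gene itself, beside DKK3, and ADAM32 to the left of SFRP1. Since the share counts USP47 and the antagonists were picked with this contrast known, nothing is read from it. NCKAP1, an actin regulator encoded 42.5 kb from FRZB, fell from 152 ± 8.69 to 92.3 ± 9.51 CPM (SD, n = 2; log2 fold change -0.72, edgeR adjusted p = 0.00739), a call lost without control replicate 1. DNAJC10, on the other side of FRZB, had a log2 fold change of 0.31 (edgeR adjusted p = 0.197). PRKG1, a cGMP-dependent kinase encoded 15.9 kb from DKK1, fell from 13.9 ± 0.538 to 9.35 ± 0.713 CPM (log2 fold change -0.57, edgeR adjusted p = 0.0330), a call lost without either control library, with library size alone and in the DESeq2 Wald test, and PCDH15, 1480 kb away, did not pass (log2 fold change -1.04, edgeR adjusted p = 0.0508). DKK1 also shares 227 exon bases with the antisense transcript PRKG1-AS1, none of them between the canonical transcripts. ADAM32, the nearest tested gene on the left of SFRP1 at 1980 kb, rose with a log2 fold change of 1.36 (edgeR adjusted p = 0.00562), and GOLGA7 on its right had 0.32 (edgeR adjusted p = 0.134). ZFYVE27 and R3HCC1L beside SFRP5 had 0.09 and -0.09, and GALNT18, H3P33, MICAL2 and PARVA within 500 kb of DKK3 had 0.24, -0.02, -0.38 and 0.11, none of them called.

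The genes whose levels over the 4 libraries lay closest to those of an antagonist were found by Euclidean distance between log2 CPM values centered on each gene's mean. For SFRP4 they were NPC1L1, the intestinal cholesterol transporter (distance 0.0992), GRIN3A, an NMDA receptor subunit (0.141), and CLU, the chaperone clusterin (0.204). For DKK3 they were COQ8A (0.0390), STK35 (0.0414) and SRRT (0.0423), and for DKK1 they were TMBIM1 (0.0343), APBB1 (0.0553) and CTXN1 (0.0562). The comparison ran over 14454 genes for SFRP4 and DKK3 and 14455 for DKK1, and with 4 libraries in 2 groups a gene with a similar difference between groups lies close by construction.

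Other inhibitors of the pathway that act at the cell surface or outside the cell moved in both directions, and those called were lower. SERPINF1, ZNRF3, TMEM88 and APCDD1 were not called but lay higher in both knockdown libraries than in either control library. TRABD2B, BAMBI and TRABD2A, also not called, lay lower in both. Of 19 such genes 18 were tested and 4 were called (22.2%), all of them lower, against 16.1% of all genes tested, and the median log2 fold change was -0.057. This list and the 3 that follow were chosen with earlier results of these data known, so nothing is read from their shares. DRAXIN, a secreted axon guidance protein that binds LRP6, had 41 and 42 counts in control cells and 4 and 6 in USP47 shRNA cells (log2 fold change -2.96, standard error 0.39, edgeR adjusted p = 0.00164). The DESeq2 Wald test gave no adjusted p for DRAXIN. The gene passed the filter on low counts only through the control group, so only a fall could be called for it. With at least 10 counts required in every library, 3 of 16 genes of this list were called, all as lower. SOSTDC1, a secreted antagonist of BMP and Wnt, fell from 8.37 ± 0.589 to 3.19 ± 0.379 CPM (log2 fold change -1.37, edgeR adjusted p = 0.00206). TPBG, a membrane inhibitor of Wnt signaling also known as WAIF1, fell from 13.8 ± 0.921 to 6.57 ± 1.06 CPM (log2 fold change -1.09, edgeR adjusted p = 0.00370). KREMEN2, a receptor for DKK proteins, fell from 10.2 ± 1.70 to 6.47 ± 0.310 CPM (log2 fold change -0.66, edgeR adjusted p = 0.0337), a call lost without either control library and in the DESeq2 Wald test, and KREMEN1 had a log2 fold change of 0.26 (edgeR adjusted p = 0.438). Without USP47 shRNA replicate 1 the list had 8 calls, of which 3 were higher.

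In the list of Wnt receptors and co-receptors, which also held the R-spondin receptors LGR4, LGR5 and LGR6, only FZD7 was called. Of 19 receptors and co-receptors 15 were tested and 1 was called (6.67%, against 16.1% of all genes tested), with a median log2 fold change of -0.172. FZD7, a Frizzled receptor, rose from 37.3 ± 0.467 to 69.4 ± 14.4 CPM (log2 fold change 0.89, standard error 0.16, edgeR adjusted p = 0.00540). LRP5 and LRP6, the targets of DKK1, had log2 fold changes of -0.41 and -0.28 that did not pass the threshold (edgeR adjusted p = 0.0637 and 0.160). The count of receptors called was 6 without USP47 shRNA replicate 1 (4 higher, 2 lower), 8 without USP47 shRNA replicate 2 (3 higher, 5 lower) and 4 with library size alone (1 higher, 3 lower).

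The Wnt and R-spondin ligands called were lower. Of 23 genes 13 were tested and 6 were called (46.2%, against 16.1% of all genes tested), and the median log2 fold change was -0.453. The list was chosen with earlier results of these data known, so nothing is read from this share. WNT5A, the leading ligand of β-catenin-independent signaling, fell from 63.4 ± 2.54 to 31.8 ± 2.83 CPM (log2 fold change -0.99, standard error 0.13, edgeR adjusted p = 0.00157). WNT3, WNT11 and WNT4 were also lower, with log2 fold changes of -0.81, -0.75 and -1.02 and edgeR adjusted p of 0.00838, 0.0214 and 0.0279. WNT3A fell from 23 and 29 counts to 8 and 7 (log2 fold change -1.72, edgeR adjusted p = 0.0127). RSPO4, an R-spondin that amplifies Wnt signaling, fell from 18 and 16 counts to 4 and 4 (log2 fold change -2.0, edgeR adjusted p = 0.0189). Both genes passed the filter on low counts only through the control group, so only a fall could be called for them. With at least 10 counts required in every library, 4 of 11 ligands were called, all as lower. WNT3, WNT3A, WNT11 and WNT4 lost their calls without control replicate 2 and RSPO4 without control replicate 1, while the DESeq2 Wald test did not call WNT4 and gave no adjusted p for WNT3A and RSPO4. The number of ligands called was 2 without control replicate 2 and 12 without USP47 shRNA replicate 2, of which 10 were lower and 2 higher.

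Genes listed as targets of β-catenin and TCF moved in both directions, and their control by β-catenin in these cells was not tested. Of 29 such genes 25 were tested and 8 were called (32%, against 16.1% of all genes tested), 6 as higher and 2 as lower, and the median log2 fold change was 0.041. Nothing is read from this share, because the list was chosen with earlier results of these data known. JUN, an AP-1 subunit, rose from 12.1 ± 1.04 to 47.6 ± 17.3 CPM (log2 fold change 1.97, standard error 0.23, edgeR adjusted p = 0.000786). The transcription factors TCF7 and TBX3 rose as well, with log2 fold changes of 0.89 and 0.81 (edgeR adjusted p = 0.00340 and 0.00352). The growth regulators CCND1 and MYC and the feedback inhibitor NKD1 rose by log2 fold changes of 0.50, 0.59 and 0.77 (edgeR adjusted p = 0.0322, 0.0392 and 0.00478). SOX9 fell from 2.73 ± 0.531 to 1.18 ± 0.105 CPM (log2 fold change -1.23, edgeR adjusted p = 0.0166). The other gene called as lower was DKK1, described above, which belongs to the set picked with this contrast known and is counted in the share of targets called. AXIN2, like NKD1 a negative feedback gene of the pathway, had a log2 fold change of 0.09 (edgeR adjusted p = 0.725), and LEF1, NOTUM and RNF43 had -0.12, 0.06 and 0.01. Further genes of the list that were not called moved more, with SP5 and ZNRF3 at 0.46 and 0.31 and NKD2 at -0.33. NKD1, CCND1 and MYC lost their calls without either control library, TBX3 without control replicate 1, and SOX9 without control replicate 2 and in the DESeq2 Wald test. The count of targets called was 3 without control replicate 1 (2 higher, 1 lower) and 3 without control replicate 2, all higher. It was 12 without USP47 shRNA replicate 1 (11 higher, 1 lower) and 11 without USP47 shRNA replicate 2 (6 higher, 5 lower).

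**Figure D5:**
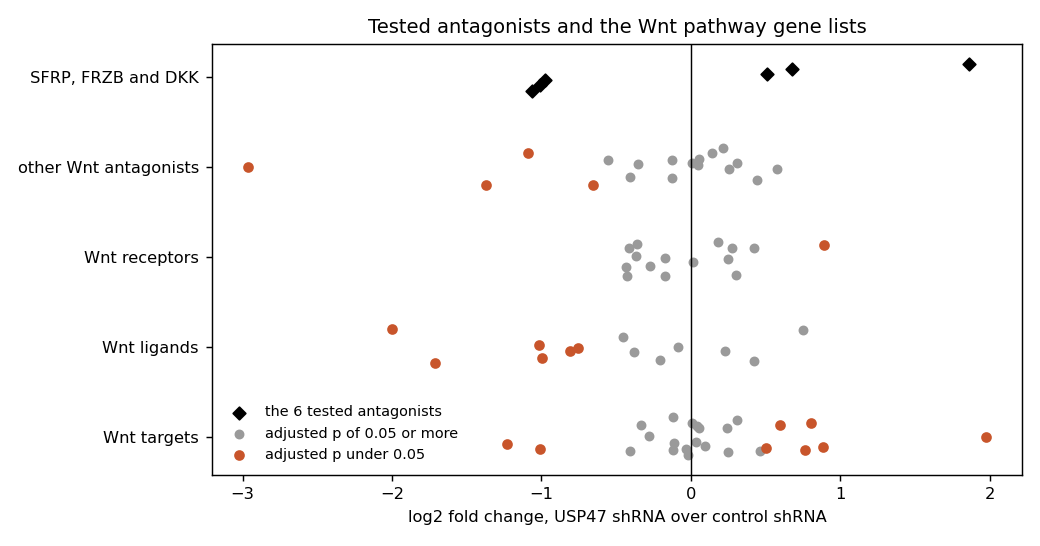
Log2 fold change of USP47 shRNA over control shRNA for the 6 fitted antagonists (black diamonds) and for the tested genes of 4 Wnt pathway lists, each point 1 gene, orange where the edgeR adjusted p was under 0.05 and grey otherwise, with a small vertical offset only to separate points. SFRP4 at 1.86 lies near JUN at 1.97, while each called ligand and each called gene among the other antagonists lies below 0.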

How the data were processed

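The members and gene lists were chosen with earlier results of these data known. Per the methods, the authors trimmed bases under a quality score of 20, mapped reads to hg19 with STAR 2.7.5c and used SAMtools 1.9 to drop duplicate and low-quality reads. Duplicate removal without molecular identifiers lowers abundant genes most. The submitters' processing notes also name Picard 2.23.3, deepTools 3.5.0.97, featureCounts and DESeq2 1.26.0. The labels name a stranded ABclonal kit and the methods another one, and the methods speak of triplicates where 2 libraries per group were analysed here. The annotation and the strand setting of the counting are not given in the sources used here.

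The authors deposited raw read counts per gene together with the TPM and FPKM they derived from them, and 0 value columns were left unused. Of 63568 identifiers 55665 matched a symbol. The counts were fitted as deposited with edgeR 4.0.16 in R 4.3.3 (TMM scaling, filterByExpr, robust quasi-likelihood test in both directions, Benjamini-Hochberg adjustment over all 21932 genes, threshold 0.05). Standard errors were derived from the F statistic of each gene, and the steps were tested on simulated data. Depth was 15649899 to 20140273 counts per library, and replicates differed by more than counting noise. TPM served for levels between genes, and FPKM for gene lengths. Intervals of the 4 genes not fitted are exact and cover counting error only.

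Positions come from GRCh37 with GENCODE release 44 lifted to that build, and upstream sequences from RefSeq (GRCh38.p14). A comparison of protein sequences was not made. The rule for named genes took all 10 antagonists, USP47, the genes of each of 4 Wnt lists with an adjusted p under 0.05 (at most 6 per direction), the nearest tested gene on each side of each fitted antagonist, tested named genes within 500 kb of DKK3, and for SFRP4, DKK3 and DKK1 the 3 genes of smallest Euclidean distance among those whose mean log2 CPM was 1 or more. Genes that overlap an antagonist, KREMEN1, LRP5, LRP6, AXIN2, LEF1, NOTUM, RNF43, SP5, ZNRF3 and NKD2 were added after their values were seen. The same holds for SERPINF1, TMEM88, APCDD1, TRABD2B, BAMBI and TRABD2A. RNF43, ZNRF3, NOTUM and LGR5 stand in more than 1 list, and DKK1 is both 1 of the 10 antagonists and in the list of targets.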

Additional observations from a re-analysis of the deposited data

How the results depend on the processing

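The alternatives were the DESeq2 1.42.0 Wald test, DESeq2 size factors or library size alone for scaling, no filter or a minimum of 10 counts per library, a replicate block, fits without 1 library and, chosen after seeing the data, edgeR's legacy quasi-likelihood fit. For the antagonists the ratio of mean TPM with a pseudocount of 0.1 was also taken, which gave 1.75 for SFRP4 and 0.49 for DKK3 on the log2 scale. No log2 fold change of an antagonist changed sign. The order of the genes by FPKM is that by TPM by construction. Over all genes 3527 were called, against 2295 with the Wald test (1122 higher, 1173 lower) and 1230 to 7270 without 1 library, namely 1230 without control replicate 1, 1415 without control replicate 2, 7270 without USP47 shRNA replicate 1 and 6517 without USP47 shRNA replicate 2. With library size alone 31.5% of the calls were higher, against 40.5%, and the median of all genes lay at -0.0722. Of the 10 antagonists 4 were called, against 1 with the Wald test and 1 to 4 without 1 library. The Wald test called 2 other Wnt antagonists (4 as reported), 2 receptors (1) and 3 ligands (6), and gave no adjusted p for DKK1, DRAXIN, WNT3A and RSPO4. Library size alone called 4 receptors, and at least 10 counts in every library called 3. Without 1 library the other antagonists called numbered 3 to 8, receptors 1 to 8, ligands 2 to 12 and targets 3 to 12, and the log2 fold change of USP47 was -1.75 to -1.01. In these fits the lone library is assumed to vary like the other group. The causes of these shifts were not tested.

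With the replicate number as a block 7422 genes were called, 5 of the antagonists (DKK3 added), 8 other antagonists, 9 receptors, 10 ligands and 12 targets. The labels share only the numbers, and deviations of same-numbered libraries correlated at 0.213 over 2 pairs. Depth limits SFRP2, DKK2, DKK4, WIF1 and SFRP5, and keeps the standard errors of SFRP1, FRZB, DKK1 and DKK3 between 0.24 and 0.30 on the log2 scale.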
